A study of Mus musculus with 2 samples.

Results

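The respiratory chain of mitochondria passes electrons from NADH and succinate to oxygen and pumps protons, and the ATP synthase uses the returning protons to make ATP. Complexes I to IV and the synthase (complex V) are built from many nuclear-encoded subunits together with a small set encoded by mitochondrial DNA. Several subunits of complex IV exist as a common form and as forms typical of heart, skeletal muscle, brown fat, lung or testis. White adipocytes, which store lipid in a large droplet, hold fewer mitochondria than brown adipocytes, which burn lipid for heat.

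Transcripts of these subunits were measured in white adipose tissue of mice at 24 weeks of age after 20 weeks of high-fat diet. One group is labelled a control (Oma1 WT) mouse and the other an Oma1-deficient (Oma1 KO) mouse, with 1 array in each. The Oma1 protein is a peptidase in the inner membrane of mitochondria, known to become active when the membrane potential falls and to cut the fusion protein Opa1. The diet and the age were shared by both groups, and the labels give neither the fat depot, the strain nor the number of mice behind an array. Members were all genes whose only symbol in the platform annotation begins with Nduf, Uqcr or Atp5, or is Sdha to Sdhd, Cyc1, Cycs or a Cox symbol with a number from 4 to 8 followed by a letter. The rule found 91 genes among 19938 with a single symbol, read by 118 probe sets.

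Values are the deposited intensities, a linear measure of probe brightness. Differences are log2(intensity + 1), Oma1-deficient minus control, averaged over the probe sets of a gene. A gene was counted if it averaged at least 83 over both arrays, which is the middle value among probe sets, and 11399 genes did. Of the 91 members 86 passed. The 3 nearest above that level were Ndufaf7 (mean intensity 101), Ndufaf2 (135) and Ndufb2 (144), and the 3 nearest below it were Cox6b2 (66.7), Ndufaf5 (64.9) and Ndufaf6 (58.4). None of the 86 passed through 1 array alone. The other 2 that did not pass were Cox8c and Cox7b2. With 1 array per group there is no replicate and no test, so "higher" and "lower" below compare these 2 arrays only. The nearest measure of error is the SD of 0.17 (log2) between probe sets of 1 gene, from 545 genes with 2 probe sets. It covers only disagreement between probe sets on the same 2 arrays, and leaves out the spread between animals and between arrays. It is the spread of a single probe set, and means over several probe sets are set beside it unchanged. In whole tissue, fewer cells of a type and less RNA per cell cannot be told apart. Oma1 itself read 187 in the control and 155 in the Oma1-deficient array. Its single probe set does not check the genotype, since the disrupted part of the gene is not given.

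The subunit transcripts were close to equal on the 2 arrays. The median difference of the 86 members was -0.04, with the middle 50% between -0.15 and 0.07, beside a median of -0.06 and a middle range of -0.18 to 0.07 over all 11399 genes. Of the members 50 were lower (58.1%), 35 higher and 1 equal in the Oma1-deficient array, beside 62.3% of all genes lower. After quantile normalisation or a loess correction the split turned to 39 lower (45.3%) and 47 higher and the median to 0.01, beside 52.2% and 53.0% of all genes lower. The direction of the set as a whole thus depended on the scaling between the arrays.

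Only 1 of the 86 members, Ndufs5, differed by at least 1.5-fold (1.16%), beside 2.97% of all genes. It was lower, as were 1.74% of all genes, and 0 members were higher by that size, beside 1.23% of all genes. At a size of 1.2-fold 8 members (9.30%) were counted, beside 21.7% of all genes. Of these 6 were lower and 2 higher, beside 14.6% and 7.13% of all genes. Bright genes differed less in general, and most members are bright. Among the 5786 genes at or above the upper quartile of probe sets, an intensity of 326, 17.5% passed 1.2-fold, while 5 of the 71 members at that level did (7.04%). The SD of the differences was 0.17 over the 86 members and 0.25 over all genes.

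**Figure D1:**
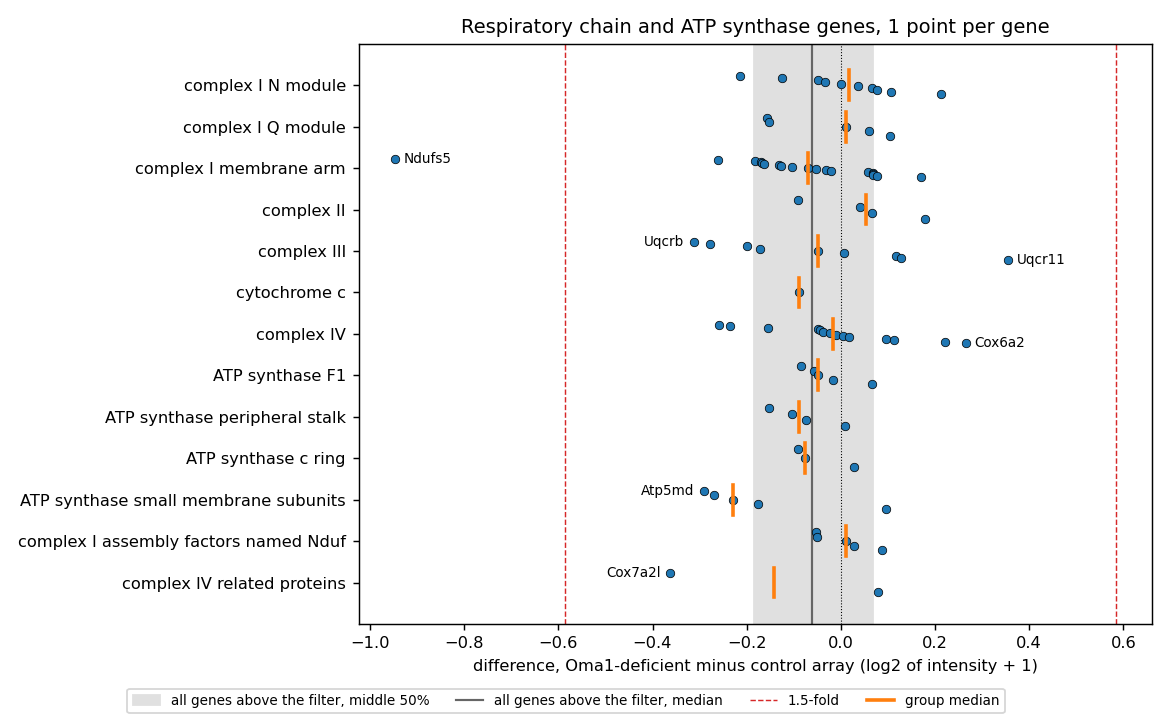
Difference between the Oma1-deficient and the control array (x axis, log2) for each of the 86 members above the intensity filter, grouped by role (y axis); orange bars are group medians, the grey band is the middle 50% of all 11399 genes, the grey line their median and the red dashed lines 1.5-fold. Ndufs5, at -0.95, is the only point outside the dashed lines, and the small membrane subunits of the ATP synthase have the lowest group median, -0.23.

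**Figure D2:**
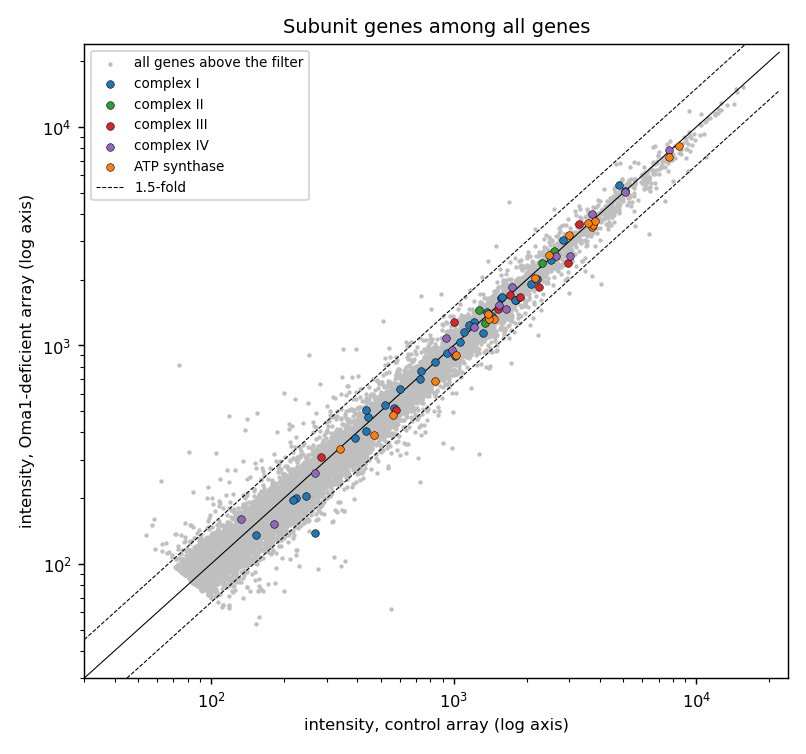
Intensity in the Oma1-deficient array (y axis, log scale) against the control array (x axis, log scale), with all 11399 genes above the filter in grey and subunits coloured by complex; the solid line marks equal values and the dashed lines 1.5-fold. The subunits lie along the line of equal values, with Ndufs5 (269 and 139) outside the dashed lines.

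Complex I, the NADH dehydrogenase, was represented by 34 subunit genes, all above the filter. In the Oma1-deficient array 19 were lower, 14 were higher and Ndufa2 was equal. Their median of -0.03 became 0.02 after quantile normalisation and after loess. Ndufs5, an accessory subunit on the intermembrane-space side of the membrane arm, read 269 in the control and 139 in the Oma1-deficient array, a difference of -0.95 or 1.93-fold. Among the 11399 genes 38 had a still lower difference. It stayed at -0.89 after quantile normalisation and -0.90 after loess. A further probe set, annotated to both Ndufs5 and its pseudogene Ndufs5-ps and so outside the member values, read 214 and 168 (-0.35). Both probe sets were lower in the Oma1-deficient array, by unequal amounts, and the near-identical copy makes the size for Ndufs5 uncertain.

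The other 33 subunits of complex I all differed by less than 1.2-fold in the deposited values, and Ndufs6 passed that size after quantile normalisation and loess, at 0.28. In the N module, the peripheral part that takes electrons from NADH, the median was 0.02, from 5 higher genes, 4 lower ones and 1 without a difference. Ndufv1, which binds NADH and the flavin, read 1319 and 1137 (-0.21), while Ndufs1, the large iron-sulphur subunit beside it, read 602 and 630 (0.07). These neighbours in the enzyme lay on opposite sides of 0. Ndufs6, a small zinc-binding subunit, read 435 and 504, the highest difference of complex I at 0.21. Ndufs4, an accessory subunit, read 2836 and 3055 (0.11). Ndufa2, another accessory subunit, was the equal one, at 841 on both arrays.

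In the Q module, which passes electrons to ubiquinone, 3 of 5 genes were higher and 2 lower. The iron-sulphur subunits Ndufs7 and Ndufs8 read 5082 and 5119 (0.01) and 1371 and 1429 (0.06). Ndufa9, at the joint between the arms, read 1152 and 1238 (0.10). Ndufs3, a core subunit, was lower on each of its 2 probe sets, at 1904 and 1722 on the brighter and 1696 and 1509 on the dimmer. The gene mean of Ndufs3 was -0.16, and Ndufa5 read 218 and 196 (-0.15). All 5 subunits of this module thus differed by less than the SD of 0.17 between probe sets. Ndufs3 and Ndufa5 exceeded the SD of 0.14 found over members with 2 probe sets.

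In the membrane arm 13 of 19 genes were lower (68.4%), near the 62.3% of all genes, with a median of -0.07. That median was -0.03 after quantile normalisation and -0.02 after loess, with 10 lower and 9 higher under either. Ndufa1, a small accessory subunit, read 246 and 205 (-0.26), and Ndufc1, another, 1015 and 895 (-0.18). Ndufc2, which sits beside Ndufc1 in the enzyme, went the other way at 4806 and 5409 (0.17). Ndufab1, the mitochondrial acyl carrier protein that is also a subunit here, read 736 and 766 (0.06). Apart from Ndufs5 the 18 genes of the arm spanned -0.26 to 0.17.

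Of the complex I assembly factors that carry Nduf names, proteins that help build the enzyme but do not stay in it, 5 of 7 passed the filter. Their median was 0.01, with 3 higher and 2 lower. Ndufaf3 read 662 and 703 (0.09), and Ndufaf2 read 138 and 133 (-0.05). Ndufaf5 (68 and 62) and Ndufaf6 (61 and 56) were too dim to count.

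Complex II, the succinate dehydrogenase, is the complex with no mitochondrially encoded subunit and is also an enzyme of the citrate cycle. Its 4 genes were all measured. Sdha, the flavoprotein with the succinate site, read 2592 and 2714 (0.07). Sdhb, the iron-sulphur subunit, read 1277 and 1446 (0.18). The membrane anchors Sdhc and Sdhd read 2317 and 2384 (0.04) and 1346 and 1263 (-0.09). Thus 3 were higher and 1 lower, with a median of 0.05, which was 0.08 after quantile normalisation and 0.09 after loess. Of these only the Sdhb value exceeded the SD between probe sets, by 0.01.

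Complex III, the cytochrome bc1 complex, had its 9 measured genes spread more widely than those of the other complexes, with an SD of 0.22. The SD over all genes was 0.25. In complex III 3 of 9 genes passed 1.2-fold (33.3%), beside 21.7% of all genes. After quantile normalisation or loess 2 did, without Uqcrh, beside 20.0% and 20.1% of all genes. Complex I had an SD of 0.20, or 0.12 without Ndufs5. Uqcr11, the smallest subunit, had the highest difference of all members. Its 2 probe sets read 1486 and 1790 (0.27) and 679 and 922 (0.44), both higher in the Oma1-deficient array, with a gene mean of 0.35. Of all genes above the filter 457 had a higher difference. Uqcrb, a subunit near the ubiquinone site, was lower on all 3 probe sets, at 3513 and 2703, 2888 and 2225, and 2570 and 2262, with a gene mean of -0.31. Uqcrh, the hinge protein that helps cytochrome c1 meet cytochrome c, read 2244 and 1851 (-0.28).

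The other small subunits of complex III, Uqcr10 and Uqcrq, read 580 and 505 (-0.20) and 1518 and 1467 (-0.05). The subunits that carry electrons did not share a direction. Cyc1, cytochrome c1, read 1882 and 1670 (-0.17), while Uqcrfs1, the Rieske iron-sulphur protein, read 283 and 307 (0.12). The large core proteins Uqcrc1 and Uqcrc2 read 1704 and 1711 (0.01) and 3286 and 3588 (0.13). In all 4 genes were higher and 5 lower, with a median of -0.05 that stayed below 0 after quantile normalisation, at -0.0053, and after loess, at -0.0014.

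Cytochrome c, the soluble carrier between complexes III and IV, is encoded by Cycs and was read by 3 probe sets. The bright ones read 5096 and 4591 (-0.15) and 3008 and 2551 (-0.24), and the dim one 33 and 36 (0.12). The dim probe set lies under the filter level, and averaging it in gave -0.09 for the gene. The brightest alone gave -0.15.

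Complex IV, the cytochrome c oxidase, had 14 of its 17 measured subunit genes above the filter, 6 higher and 8 lower, with a median of -0.02 that became 0.02 after quantile normalisation and 0.03 after loess. Cox4i1, the common form of a regulatory subunit, read 1542 and 1531 (-0.01), and Cox5a, which binds beside it, read 986 and 956 (-0.04). Cox5b, a zinc-binding subunit on the matrix side, was lower on both probe sets, at 3521 and 3078 and at 2603 and 2151, with a mean of -0.23. Cox6c, a small transmembrane subunit, had probe sets on opposite sides of 0, at 8097 and 7757 and at 7434 and 7949.

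The isoform groups were read to see which forms of complex IV lay above the filter in this fat. The filter is the middle value among probe sets and not a limit of detection, so a form under it need not be absent. Levels of different genes come from different probes and, apart from that filter, are not set against each other here. In the COX8 group, Cox8a, the common form, read 5103 and 5025 (-0.02). Cox8b, the form of heart, skeletal muscle and brown fat, was well above the filter at 926 and 1079 (0.22), and passed 1.2-fold after quantile normalisation (0.27) and loess (0.28). Cox8c, the testis form, read 49 and 58 and did not pass. In the COX7A group, Cox7a1, also a form of heart, muscle and brown fat, read 267 and 260 (-0.04), and the common Cox7a2 read 1642 and 1475 (-0.15). In the COX6A group, the common Cox6a1 read 1739 and 1859 (0.10), and Cox6a2, the heart and muscle form, 133 and 160 (0.26), past 1.2-fold at a low level. The 3 muscle-type forms did not share a difference, with Cox6a2 and Cox8b higher and Cox7a1 near 0, and the sign of Cox7a1 turned after quantile normalisation and loess.

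Among the remaining groups, Cox4i2, the lung and hypoxia form, read 182 and 152 (-0.26) beside the near-equal Cox4i1. Cox6b1, the common form of a subunit facing the intermembrane space, read 3703 and 4006 (0.11), and Cox6b2, its testis form, 61 and 73 under the filter. Cox7b read a gene mean of 2653 and 2566 (-0.05), and its testis form Cox7b2 19 and 20. All 3 testis forms were under the filter on both arrays. Ndufa4, named for complex I but now placed in complex IV, read 1216 and 1219. Its hypoxia-induced relative Ndufa4l2 read 160 and 169 (0.08). Cox7a2l, a relative of Cox7a2 that joins complexes III and IV into supercomplexes, had the lowest gene mean after Ndufs5, at -0.36. That mean rested on 1 of its 2 probe sets, which read 208 and 132 (-0.65), while the brighter read 383 and 364 (-0.07).

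**Figure D3:**
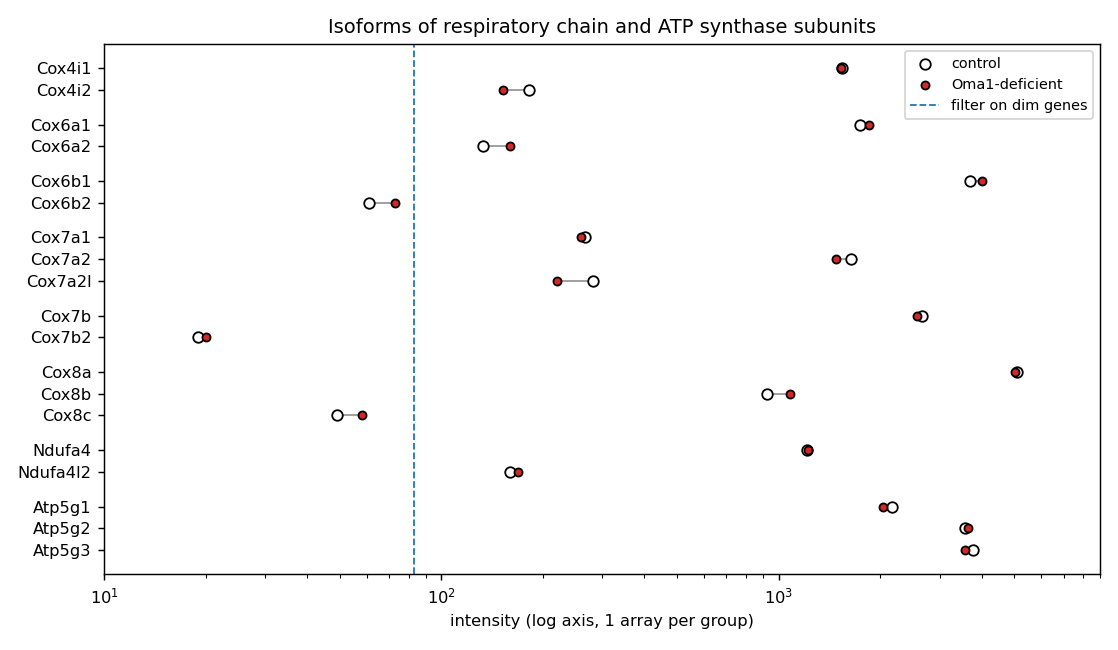
Intensity (x axis, log scale) in the control (open) and the Oma1-deficient array (red) for the 19 genes of the isoform groups (y axis), with the filter level of 83 as a dashed line. Cox6b2, Cox7b2 and Cox8c lie left of the line, and positions of different genes cannot be ranked as levels because each gene has its own probes.

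Brown fat and muscle markers were read beside these isoforms. Of 14 skeletal muscle markers 4 passed the filter, and their summed intensity over all 14 was 996 in the control and 1134 in the Oma1-deficient array, with Ckm at 89 and 92 and Acta1 at 270 and 272. Of 8 heart markers 2 passed, with sums of 499 and 558, Myh6 at 45 and 44 and Myl2 at 24 and 26. The 2 that passed were both higher, Actc1 at 130 and 174 (0.42) and Tnni3 at 85 and 96 (0.17). Most striated muscle markers were thus under the filter on both arrays, and Pvalb (44 and 110) and Tnni2 (87 and 121) were the most unequal of the skeletal list. Of 11 brown adipocyte markers 6 passed, with sums of 2473 and 2910. The 6 that passed were all higher, from Prdm16 at 110 and 111 (0.01) to Cidea, a lipid droplet protein, at 84 and 213 (1.33). Under the filter, Ucp1, the uncoupling protein that defines brown fat, read 38 and 55, and Zic1 32 and 36. Also under it, Elovl3 (51 and 46) and Ppargc1a (85 and 72) were lower and Dio2 was equal at 45. No marker read 0, since the lowest value on the arrays was 8. The part of all these markers in the values of Cox8b and Cox6a2 was not tested.

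The ATP synthase was the complex with the largest share of lower genes, 13 of 17 (76.5%) beside 62.3% of all genes, with a median of -0.08. The median was -0.05 after quantile normalisation and -0.04 after loess. Each had 12 of 17 lower (70.6%), beside 52.2% and 53.0% of all genes. In the catalytic F1 head, Atp5a1 and Atp5b, the alpha and beta subunits, read 3836 and 3710 (-0.05) and 7704 and 7264 (-0.08). Atp5c1, the gamma subunit that turns inside the head, read 2471 and 2588 (0.07). The 5 genes of the head spanned -0.08 to 0.07, all within the SD between probe sets.

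In the peripheral stalk, which holds the head still, 3 of 4 genes were lower, beside 62.3% of all genes. Atp5h, subunit d, was lower on its 3 probe sets with a mean of -0.15, and Atp5o, which ties the stalk to the head, read 1386 and 1395 (0.01). Atp5pb, subunit b, had probe sets on both sides of 0, at 1845 and 1613 and at 1057 and 1092. The c ring, the rotor in the membrane, is encoded by 3 genes for the same mature protein. Atp5g1 read a gene mean of 2171 and 2039 (-0.09), Atp5g3 3769 and 3573 (-0.08) and Atp5g2 3578 and 3649 (0.03). None of these differed by more than the SD between probe sets.

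The small membrane subunits of the synthase had the lowest group median, -0.23. Of these 4 of 5 were lower, beside 62.3% of all genes. The median was -0.17 after quantile normalisation and -0.16 after loess. Under each 4 of 5 were lower, beside 52.2% and 53.0% of all genes. Atp5md, a small subunit of the synthase dimer, was lower on all 3 probe sets, at 1316 and 1044, 666 and 536, and 672 and 574, with a mean of -0.29. Atp5k, subunit e, read 469 and 389 (-0.27). Atp5l, subunit g, was lower on each of its 6 probe sets, between -0.33 and -0.14, with a mean of -0.23. Atp5mpl read 1022 and 904 (-0.18). Subunits e and g are known for joining synthases into dimers. The exception was Atp5j2, subunit f, at 2988 and 3195 (0.10). After either scaling Atp5k was no longer past 1.2-fold, and Atp5md also was not.

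**Figure D4:**
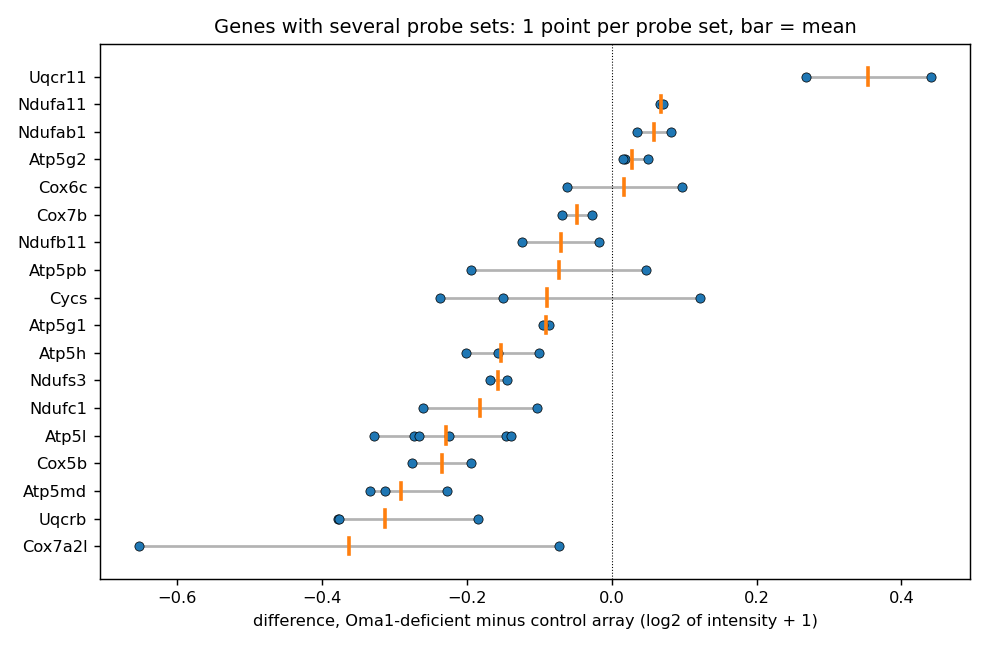
Difference between the arrays (x axis, log2) of each probe set of the 18 members that have more than 1 (y axis), with orange bars at the gene means. In 15 genes all probe sets lie on the same side of 0, and in Atp5pb, Cox6c and Cycs they do not.

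Probe sets of the same member mostly shared their direction. Of the 18 members with more than 1 probe set, 15 had all on the same side of 0. The SD between probe sets was 0.14 over the 12 members with exactly 2 above the filter. Many subunit genes have processed copies elsewhere in the genome that share their sequence, so probe sets of 1 gene can read the same transcript and are not independent.

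Promoter sequences were taken from RefSeq (GRCm38.p6), which gave 79 windows of 300 bases, 250 before to 50 after the start, for 74 of the 91 members. Nrf1 and Gabpa are transcription factors known to act on many respiratory genes. The core of the Nrf1 motif, CGCNTGCGC, was found on either strand in 23 of the 79 windows (29.1%), beside 6.25% of 32851 windows of all genes. The Gabpa motif CCGGAAG was in 18 (22.8%) beside 8.86%, and the YY1 motif AAGATGGC in 10 (12.7%) beside 2.75%. A window was counted once however many matches it held, and a base could belong to more than 1 motif. The member windows had a median GC content of 58.3%, and all windows 52.7%. Members above the filter with the Nrf1 letters (21) had a median difference of -0.05 and those without (50) -0.04. For Gabpa the medians were -0.03 (18) and -0.05 (53), and for YY1 0.04 (10) and -0.05 (61). The medians were thus near 0 with and without each motif, while members with the Nrf1 letters ranged from -0.95 to 0.35 and included both the lowest and the highest member.

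The windows of the lowest and the highest member are printed because these genes mark the ends of the range. Each line gives the 250 bases before the start, 5′ to 3′ on the strand of the gene, with the matched motif in capitals. For Ndufs5 (chr4:123718187-123718436, minus strand) the capitals are the Nrf1 core, read on the opposite strand. For Uqcr11 (chr10:80406822-80407071, minus strand) they are the Gabpa motif and, at the end, the first 5 of the 9 Nrf1 letters, which run across the start.
Ndufs5: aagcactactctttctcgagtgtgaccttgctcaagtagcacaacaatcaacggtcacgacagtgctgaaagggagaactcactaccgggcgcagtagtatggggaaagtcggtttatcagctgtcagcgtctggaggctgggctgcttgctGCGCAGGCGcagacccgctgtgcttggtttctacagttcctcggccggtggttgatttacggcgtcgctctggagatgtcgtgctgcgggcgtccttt
Uqcr11: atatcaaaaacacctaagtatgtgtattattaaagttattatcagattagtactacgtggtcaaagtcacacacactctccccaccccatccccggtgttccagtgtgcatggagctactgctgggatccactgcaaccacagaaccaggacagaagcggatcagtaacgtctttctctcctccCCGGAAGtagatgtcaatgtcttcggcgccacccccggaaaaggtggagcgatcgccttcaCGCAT
The Nrf1 letters begin 98 bases before the start of Ndufs5, and the Gabpa letters 66 and the Nrf1 letters 5 bases before that of Uqcr11. A match is a run of letters and was not tested as a binding site.

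Genes that work with the members were read from lists of the known pathway. Mitochondrially encoded subunits were represented by COX2, a catalytic subunit of complex IV, at 7945 and 7078 (-0.17), and ND3 of complex I at 3845 and 3870 (0.01). Among 40 assembly factors with other names that passed the filter, 27 were lower, 11 higher and 2 equal, with a median of -0.09. Of these 0 passed 1.5-fold, beside 2.97% of all genes. At 1.2-fold 3 passed (7.5%), beside 21.7% of all genes. All 3 were lower and were among the 22 factors for complex IV (13.6%), beside 14.6% of all genes lower by that size. Taco1, which activates translation of the COX1 subunit, read 176 and 137 (-0.36), and Cox10, which makes the haem of complex IV, 317 and 345 (0.12). For complex I, Tmem186 read 113 and 94 (-0.26) and Lyrm2 308 and 344 (0.16). For complex III, Uqcc1 read 335 and 289 (-0.21) and Uqcc2 485 and 567 (0.22). For complex II, Sdhaf2 read 496 and 460 (-0.11), and Sdhaf4 was near equal at 86.8 and 87.1. By complex, 7 of 9 factors for complex I were lower, as were 3 of 4 for complex II, 2 of 5 for complex III and 15 of 22 for complex IV. These counts come from the deposited values, in which 62.3% of all genes were lower, and were not repeated with the other scalings.

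Atpaf2, which assembles the F1 head, read 986 and 912 (-0.11), and Atpif1, the inhibitor of the synthase, 3570 and 3706 (0.05). Of 12 genes for ubiquinone synthesis 9 were lower (75%) and 3 higher, beside 62.3% of all genes lower. Their median was -0.05, from Pdss2 at 125 and 107 (-0.22) to Coq2, which attaches the side chain, at 658 and 807 (0.29). Only Coq2 passed 1.2-fold (8.33%), beside 21.7% of all genes. Of 8 other enzymes that feed electrons to ubiquinone 6 were higher and 2 lower (25%), with a median of 0.08. Prodh, proline dehydrogenase, read 244 and 189 (-0.37) and Dhodh, of pyrimidine synthesis, 120 and 144 (0.26). Of 15 regulators of respiratory genes 12 passed the filter, with a median of -0.12. Among those 12, 9 were lower (75%) and 3 higher, beside 62.3% of all genes lower. At 1.2-fold 0 were counted, beside 21.7% of all genes. The regulators ran from Esrrg at 112 and 95 (-0.24) to Esrra at 243 and 278 (0.19), both oestrogen-related receptors. Ppargc1a, the coactivator of mitochondrial biogenesis, was at 85 and 72, under the filter as a mean. The counts of these lists come from the deposited values and were not repeated with the other scalings.

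Other nuclear genes of mitochondria were read the same way. The 74 mitochondrial ribosomal protein genes above the filter had a median of -0.08, with 51 lower (68.9%) and 23 higher, beside 62.3% of all genes lower. Of them 11 were past 1.2-fold (14.9%), beside 21.7% of all genes. The 13 citrate cycle genes had a median of -0.06, with 9 lower (69.2%) and 4 higher and 0 past 1.2-fold. They ran from Suclg1 at 816 and 733 (-0.15) to Idh3a at 2061 and 2294 (0.15). After quantile normalisation the medians were 0.01 for the members, -0.02 for the ribosomal proteins and -0.01 for the citrate cycle. With that scaling 58.1% of the ribosomal and 69.2% of the citrate cycle genes were lower, beside 52.2% of all genes. After loess the shares were 54.1% and 69.2%, beside 53.0% of all genes. No test of these gaps was possible.

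**Figure D5:**
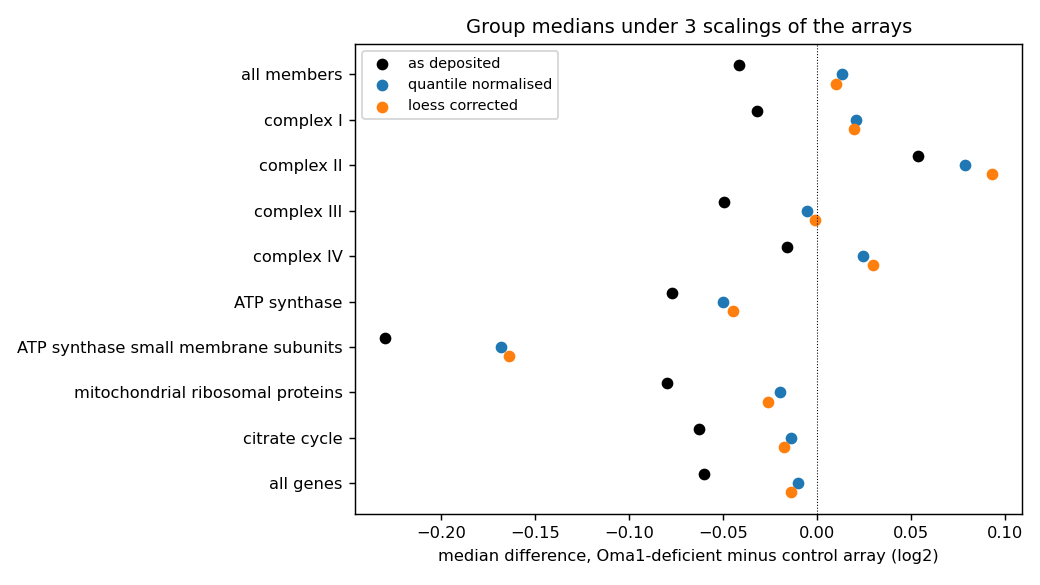
Median difference between the arrays (x axis, log2) of each group of genes above the filter (y axis) with the values as deposited (black), quantile normalised (blue) and loess corrected (orange). The medians of all members, complex I and complex IV cross 0 between scalings, while the ATP synthase stays below 0 and complex II above it.

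Markers of several cell types and of other tissues were also read, and some of them differed between the arrays. White adipocyte markers (9 of 9 above the filter) summed to 68285 in the control and 60611 in the Oma1-deficient array, with Adipoq, which encodes adiponectin, at 6832 and 5255 and Lep, which encodes leptin, at 6797 and 6375. Macrophage markers (11 of 11) summed to 27907 and 32770, with Adgre1 at 2497 and 2896 and Cd68 at 5616 and 5626. Of these 9 were higher and 2 lower, from Cd163 at 243 and 185 (-0.39) to Fcgr1 at 308 and 503 (0.71). Liver markers (9 of 9) summed to 10049 and 11615, with Alb, which encodes albumin, at 1692 and 4523 and Apoa1 at 253 and 904. Of the 9, 7 were higher in the Oma1-deficient sample, while Cyp2e1, at 6384 and 3237, and Tat, at 181 and 146, were lower. Cyp2e1 made up the largest part of the control sum, and the median difference of the 9 was 0.91. Endothelial markers (8 of 8) summed to 9219 and 7132, with Pecam1 at 1210 and 962 and Cdh5 at 3067 and 2425. Mesothelial markers (6 of 6) summed to 2072 and 1388, with Msln at 228 and 160 and Upk3b at 773 and 455. Of these 5 were lower, and Wt1 was higher at 178 and 214. Smooth muscle and pericyte markers (8 of 8) summed to 5970 and 6132, with Acta2 at 3314 and 3295 and Myh11 at 292 and 389. Of these 4 were higher and 4 lower, from Notch3 at 421 and 337 (-0.32) to Cnn1 at 96 and 201 (1.06). Of 7 testis and epididymis markers 1 passed, with sums of 311 and 333, Prm1 at 76 and 105 and Prm2 at 67 and 100, while Adam7 went the other way at 62 and 21. The part of these cell types and tissues in the subunit values was not tested, and with 1 array per group it cannot be told apart from genotype.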

How the data were processed

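The labels name Affymetrix Mouse Gene 1.0 ST arrays hybridised with biotin-labelled RNA, 1 array per group. The authors deposited 1 linear intensity per probe set, in whole numbers from 8 to 21365. The sources used here do not give background correction, summarisation or scaling. Both arrays had a median of 83, and upper quartiles of 335 and 318.

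Of 35512 probe sets 21789 had 1 symbol in GEO's platform annotation, 1621 several and 12102 none; only the first entered gene values. All 91 members matched RefSeq (GRCm38.p6) by gene ID and symbol. A pseudocount of 1 was added before taking log2, so changes of dim genes are understated, and values were averaged over probe sets of a gene. No count or p-value model was used. Sizes of 1.5-fold and 1.2-fold described differences.

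Members and lists were chosen with earlier results of these data known. Named genes were the 4 highest and 4 lowest of each complex, catalytic subunits, isoforms, cytochrome c, genes with several probe sets where their probe sets bear on a value, list extremes and the first markers of each list; a few further genes (Ndufa2, Ndufab1, Ppargc1a, Pvalb, Tnni2, Cyp2e1, Tat, Adam7 and others beside marker sums, and subunits that complete a complex) were added after their values were seen. The procedure was tested on simulated data. Alternatives were quantile normalisation, loess (span 0.4), median centring, the brightest probe set, a pseudocount of 16 and other filters. Python 3.11.15, numpy 2.4.6, pandas 2.3.3, statsmodels 0.14.6 and matplotlib 3.10.9 were used.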

Additional observations from a re-analysis of the deposited data

How the results depend on the processing

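No paired analysis was possible because each group has 1 array, and leaving out an array was not possible for the same reason. Median centring changed no value, since both arrays have the same median. The medians of all members, complex I, complex IV and the isoform groups, -0.04, -0.03, -0.02 and -0.02, turned to 0.01, 0.02, 0.02 and 0.02 with quantile normalisation and to 0.01, 0.02, 0.03 and 0.03 with loess. Without the filter the complex IV and isoform medians were 0.0036 and that of the Nduf-named assembly factors -0.05. The 6 members at least 1.2-fold lower became 3 and the 2 higher became 4 with quantile normalisation and with loess. Of all genes 20.0% and 20.1% passed 1.2-fold in either direction under these scalings. The 2 higher became 1 with a pseudocount of 16 and 1 when genes had to reach the upper quartile. Of all genes 19.6% and 17.5% passed 1.2-fold there. At the upper quartile Ndufs5 was no longer counted and 0 members were at least 1.5-fold lower, beside 1.40% of all genes. None of the 8 members past 1.2-fold changed sign with quantile normalisation, loess, the brightest probe set or a pseudocount of 16. A pseudocount cannot change the sign of a gene with 1 probe set. Median centring and the filters could change no sign, and 5 of the 8 reached the upper quartile. Under quantile normalisation and under loess 11 of the 86 members changed sign. With the brightest probe set 1 did, Cox6c, and Cox7a2l moved from -0.36 to -0.07. The median of all genes moved from -0.06 to -0.01 with quantile normalisation and with loess.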

Other observations

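Probe sets annotated to several symbols were outside the member values. The 3 shared by Cox7c, a small subunit of complex IV, and Gm12338 read 7289 and 6625, 7222 and 6543, and 6014 and 5446, all lower in the Oma1-deficient array by 0.14 on the log2 scale after rounding. The 2 shared by Ndufb4 and Ndufb4b, of the membrane arm of complex I, read 4104 and 3778 (-0.12) and 3679 and 3406 (-0.11). All of these differences were smaller than the SD of 0.17 between probe sets of a gene.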
